A study of Mus musculus with 15 samples.

Results

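Skeletal muscle takes up glucose through carriers of the SLC2A family and stores it as glycogen. The 9 genes described here, Slc2a1, Slc2a4, Gys1, Gyg, Gbe1, Pygm, Phkg1, Ppp1r3a and Ppp1r3c, were taken as a list of named genes from the 39179 genes counted in every mouse. They encode 2 glucose carriers, 3 proteins that build glycogen, 2 that take part in breaking it down and 2 that bring protein phosphatase 1 to the glycogen particle. RNA of quadriceps muscle had been sequenced from 15 C57BL/6 mice: 4 wild-type and 4 V338Y mice of 3 mo, and 3 wild-type and 4 V338Y mice of 19 mo. The V338Y mice are homozygous for a germline amino acid exchange in the mitochondrial ribosomal protein Mrps5, which raises the rate of errors in mitochondrial translation, and the wild-type mice carry the unchanged Mrps5. The change is present in every tissue of the animal, so that muscle is not the only site where it can act.

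GLUT4, the product of Slc2a4, is the insulin-responsive glucose carrier of muscle and waits in vesicles inside the fibre, whereas GLUT1, the product of Slc2a1, sits at the cell surface of many cell types. Glycogenin (Gyg) primes a new glycogen chain on itself, glycogen synthase (Gys1) extends it and the branching enzyme (Gbe1) adds branches. The muscle phosphorylase (Pygm) releases glucose 1-phosphate after it has been activated by phosphorylase kinase, of which Phkg1 encodes the catalytic subunit of muscle. Ppp1r3a and Ppp1r3c encode glycogen-targeting subunits of protein phosphatase 1, an enzyme that activates the synthase and inactivates phosphorylase. Of these proteins, the muscle phosphorylase is abundant in fast fibres of mouse muscle.

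The counts summed to between 8250653 and 18968132 per mouse, and levels are given as CPM, that is counts relative to library totals that TMM had corrected for differences in RNA composition. All 8 mice of 3 mo expressed Y-linked transcripts, with Ddx3y at 163 to 202 CPM, and had Xist at 0.574 CPM or less, whereas the 7 mice of 19 mo had Xist at 506 to 631 CPM and Ddx3y at 0.0826 CPM or less. The mouse labels give no sex, the study's methods describe the young mice as female, which these transcripts go against, and age and sex cannot be told apart in any comparison of 19 mo with 3 mo. Mrps5 was detected at 14.9 to 27.5 CPM in all mice, a level that checks nothing about an amino acid exchange. All 7 skeletal muscle fibre markers were detected in every mouse. Their sum was 177283 to 222734 CPM at 3 mo, 155838 to 186772 CPM in wild-type mice of 19 mo and 111192 to 178831 CPM in V338Y mice of 19 mo, so that the ages overlapped in wild-type but not in V338Y mice. Fast fibre markers summed to 74612 to 149073 CPM. Slow fibre markers summed to 59.6 to 189 CPM at 3 mo. At 19 mo this sum was 78.3, 444 and 844 CPM in the wild-type mice numbered 2, 4 and 5, and 154, 66.3, 141 and 2739 CPM in the V338Y mice numbered 2, 3, 4 and 5. Of the 4 groups, those of 19 mo therefore held mice that differed in fibre markers. Many results that rest on the mice numbered 5 are given with and without them.

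Stretches of 200 bases upstream of Gbe1, Pygm and Phkg1 are printed as examples of genes for which the mice numbered 5 lay at the end of the range of their groups at 19 mo, at the upper end for Gbe1 and at the lower end for the other two. They run from 250 to 51 bases before the RefSeq start on the strand of the gene, at chr16:70313699-70313898 on the plus strand, chr19:6384158-6384357 on the plus strand and chr5:129879139-129879338 on the minus strand of GRCm38. None of the 3 windows holds an annotated exon, and that of Phkg1 lies within the span of a longer annotated Phkg1 transcript. Capitals mark E-boxes, CANNTG, which reads the same on both strands.
Gbe1: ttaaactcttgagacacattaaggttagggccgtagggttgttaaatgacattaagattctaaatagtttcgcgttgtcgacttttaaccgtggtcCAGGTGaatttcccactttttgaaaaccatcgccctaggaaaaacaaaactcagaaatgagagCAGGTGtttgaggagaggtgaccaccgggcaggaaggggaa
Pygm: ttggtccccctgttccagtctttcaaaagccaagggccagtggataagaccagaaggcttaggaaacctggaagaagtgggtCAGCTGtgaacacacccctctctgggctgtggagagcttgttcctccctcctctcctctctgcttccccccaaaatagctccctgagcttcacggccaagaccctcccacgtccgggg
Phkg1: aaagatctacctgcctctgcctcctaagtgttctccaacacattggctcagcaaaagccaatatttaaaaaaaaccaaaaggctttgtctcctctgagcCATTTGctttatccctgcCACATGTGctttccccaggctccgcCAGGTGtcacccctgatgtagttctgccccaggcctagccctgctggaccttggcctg
Gbe1 held 2 E-boxes, Pygm 1 and Phkg1 4, of which 2 overlap. The set of upstream sequences used here held 8 of the 9 listed genes and lacked Slc2a4. An E-box was found in 7 of these 8 and in 59.0% of the 32851 windows of the same length. Its presence therefore does not set these genes apart. The MEF2 motif was found in 1 of the 8, Ppp1r3a, and in 2.4% of all windows, GGGCGG on either strand in 1, Gys1, against 24.6%, and CCAAT on either strand in 3 against 28.4%.

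The levels of the 9 genes in each mouse are plotted by group. Compared per length of exon, Pygm was the most abundant of them, with 1224 CPM per kb ± 103 (SD, n = 4) in wild-type mice of 3 mo. Ppp1r3c followed with 261 ± 70.3, Ppp1r3a with 181 ± 27.4 and Gyg with 134 ± 13.1 CPM per kb, where the ranges of mean ± SD of Ppp1r3c and Ppp1r3a overlapped and those of Ppp1r3a and Gyg did not. Slc2a4 stood at 115 ± 3.54, Phkg1 at 73.9 ± 2.27, Gys1 at 47.1 ± 2.98 and Gbe1 at 13.3 ± 0.634 CPM per kb, and Slc2a1 was the least abundant with 1.26 ± 0.335. Glycogen synthase was thus present at 3.86% ± 0.310 (SD, n = 4) of the level of phosphorylase per length. The length used is that of all annotated exons of a gene, and part of the order depends on it. In mean CPM of the same mice, Ppp1r3a (1262) lay above Ppp1r3c (711), and Phkg1 (481) above Slc2a4 (400) and Gyg (315).

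**Figure D1:**
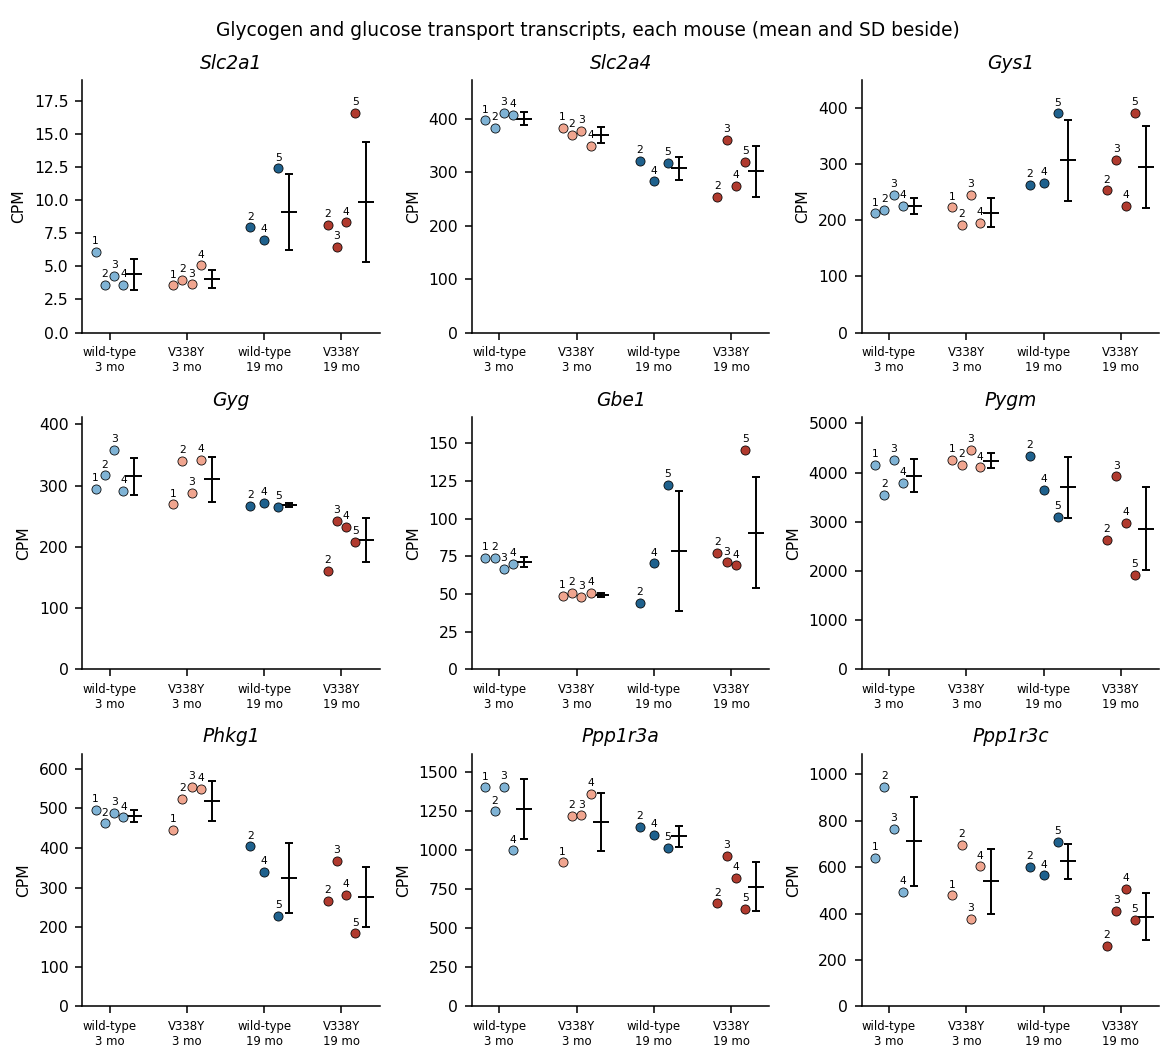
CPM of the 9 genes (vertical axes, linear from 0) in every mouse of the 4 groups, with the mouse number above each point and the group mean and SD as a bar beside the points. Gbe1 of 3 mo mice falls into separate ranges by genotype, 66.7 to 73.8 CPM in wild-type and 48.3 to 50.7 CPM in V338Y mice, and the mice numbered 5 stand high for Slc2a1, Gys1 and Gbe1 among those of 19 mo.

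Slc2a4, Gys1, Pygm and Phkg1 were the main forms of their families in this muscle. Slc2a4 made up 88.0% to 93.0% of the summed level per length of the 10 measured SLC2A carriers in every mouse, and Slc2a1 0.815% to 4.53%. Gys1 made up 93.3% to 99.9% of both glycogen synthases, Pygm 98.9% to 99.8% of the 3 phosphorylases and Phkg1 94.9% to 98.8% of both catalytic subunits of phosphorylase kinase. Among the 7 glycogen-targeting subunits of protein phosphatase 1, Ppp1r3c took 43.6% to 65.4% and Ppp1r3a 33.8% to 55.2%. The liver forms Gys2 and Pygl had at most 8.47 and 28.4 CPM, both in wild-type mouse 1 of 3 mo, in which adipocyte markers summed to 1532 CPM, against 393 to 875 CPM in the other mice of that group. In bulk tissue, fewer cells of a type and less RNA per cell cannot be told apart.

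**Figure D2:**
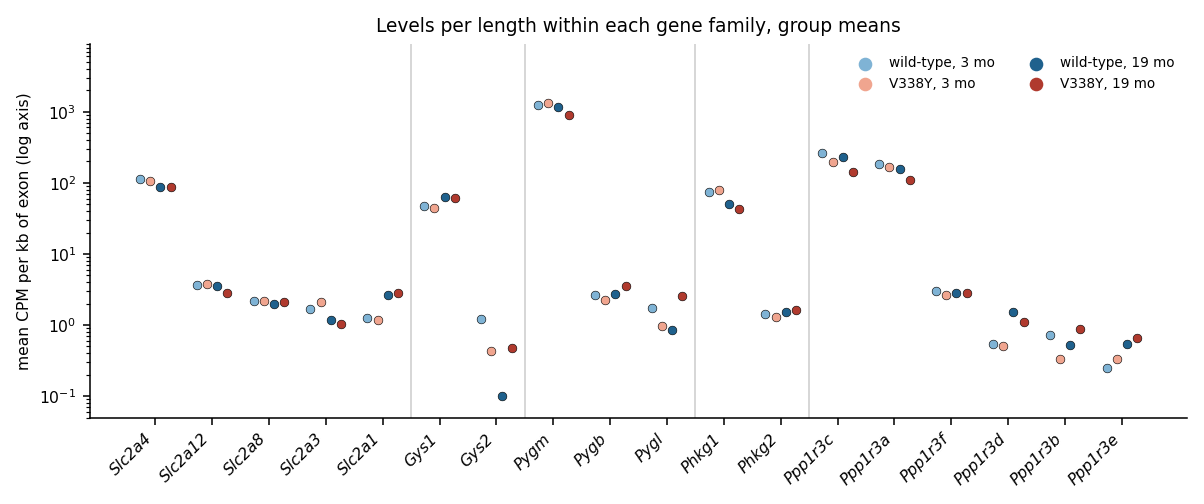
Mean CPM per kb of exon (log axis) of 18 genes, grouped by family from carriers to targeting subunits, with a point for each of the 4 groups. Pygm, at 890 to 1319 CPM per kb, lies far above Pygb and Pygl, which have group means of 0.844 to 3.55 CPM per kb.

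Whether these transcripts differed between mice of 3 mo and 19 mo was asked in each genotype. The ages also differed in Xist and Y-linked transcripts, so that age and sex cannot be told apart. Here and below, a change with age or an effect of age stands for 19 mo against 3 mo. In wild-type mice 4 of the 9 genes passed the test, Slc2a1 and Gys1 upward and Slc2a4 and Phkg1 downward. Of the 13657 genes tested, 36.2% passed in this comparison, 18.3% upward and 17.8% downward. In V338Y mice 7 of the 9 passed, with Slc2a1, Gys1 and Gbe1 up-regulated and Gyg, Pygm, Phkg1 and Ppp1r3a down-regulated, beside 46.9% of 13868 tested genes, 24.4% upward and 22.5% downward. Without mouse 5 of 19 mo, 3 of the 9 passed in wild-type and 5 in V338Y mice. The 9 genes had a median log2 fold change of -0.18 in the wild-type comparison, beside 0.02 over all tested genes, and of -0.46 in the V338Y comparison, beside 0.07. The difference between the genotypes in the effect of age, tested as an interaction, passed for 0 of the 9 genes and for 0 of 14128 genes by edgeR, 0% of those tested, with 1355 genes at an unadjusted p under 0.05. DESeq2 called 26 genes for the interaction, with 0 of the 9 among them.

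**Figure D3:**
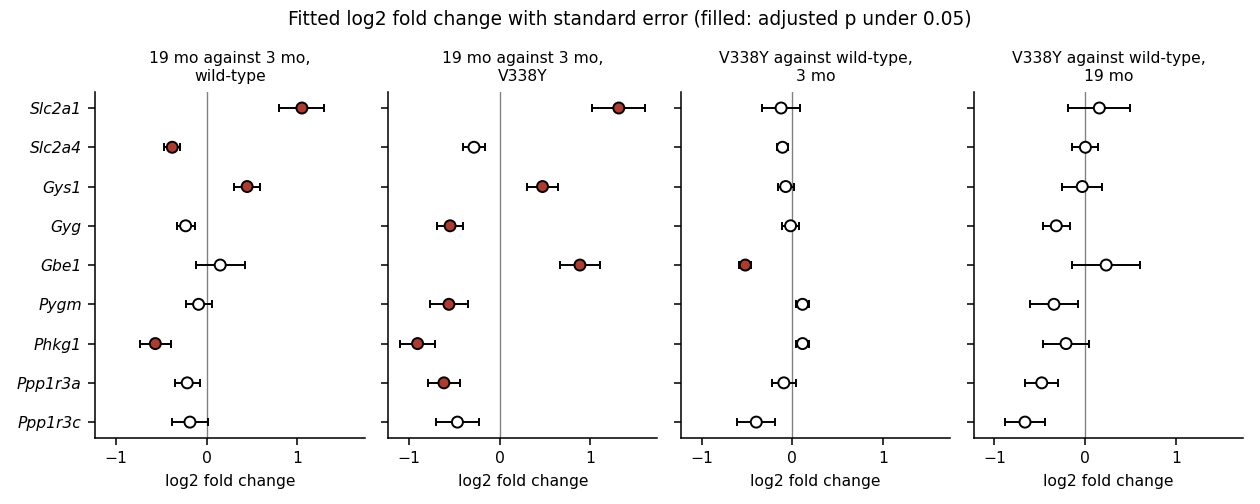
Log2 fold change (horizontal axes) with its standard error for the 9 genes in the 4 comparisons, filled where the adjusted p was under 0.05. Filled points number 4 and 7 in the age comparisons, 1 between genotypes at 3 mo and 0 between genotypes at 19 mo.

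Among the carriers, Slc2a1 (chr4:119108711-119137983, plus strand) was up-regulated with age in both genotypes. Its level was 6.10, 3.62, 4.31 and 3.62 CPM in wild-type mice 1 to 4 of 3 mo and 7.95, 7.02 and 12.4 CPM in wild-type mice 2, 4 and 5 of 19 mo. V338Y mice had 3.56, 3.999, 3.64 and 5.07 CPM at 3 mo, and 8.11, 6.499, 8.32 and 16.6 CPM in mice 2, 3, 4 and 5 of 19 mo. The ages did not overlap in either genotype, and the highest mouse of each old group was number 5. The log2 fold change was 1.05 ± 0.248 (SE) in wild-type and 1.31 ± 0.291 in V338Y mice, with adjusted p-values of 0.0109 and 0.00520 by edgeR's quasi-likelihood test. Leaving out any mouse kept both calls, and without mouse 5 the V338Y value was 0.94. The wild-type value stayed between 0.76 and 1.235 when a mouse was left out. These levels rest on 40 to 258 counts per mouse, and Slc2a1 shares 105 exon bases with the antisense gene Gm12868 on the opposite strand. Endothelial markers, which come from cells that express GLUT1, summed to 261 to 325 CPM at 3 mo and 352 to 574 CPM at 19 mo, and Schwann and perineurial markers to 44.7 to 59.2 and 58.8 to 120 CPM. Of the 10 endothelial markers 4 rose in wild-type and 5 in V338Y mice, beside 18.3% and 24.4% of all tested genes. Smooth muscle and pericyte markers summed to 313 to 423 CPM at 3 mo and 444 to 720 CPM at 19 mo. The ages overlapped for macrophage markers, 177 to 331 and 271 to 384 CPM, and for fibroblast markers, 977 to 1475 and 662 to 1420 CPM. The part of these cells in the rise of Slc2a1 was not tested.

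Slc2a4 (chr11:69942539-69948188, minus strand) fell with age in wild-type mice. It stood at 397, 383, 410.5 and 408 CPM in wild-type mice 1 to 4 of 3 mo and at 321, 283 and 317 CPM in mice 2, 4 and 5 of 19 mo, without overlap. The log2 fold change was -0.38 ± 0.0871 (SE, edgeR adjusted p = 0.00965), and the call held without any of the 7 mice, with adjusted p-values up to 0.0425. In V338Y mice the level was 384, 369.8, 378 and 349 CPM at 3 mo and 254, 361, 275 and 319.6 CPM in mice 2, 3, 4 and 5 of 19 mo. Mouse 3 lay within the range of the young mice. The V338Y value, -0.28 ± 0.118 with an edgeR adjusted p of 0.0752, missed the threshold, and turned to 0.0013 when library totals were used without TMM scaling. It passed without mouse 3 of 19 mo at -0.39 (edgeR adjusted p = 0.0191), in a fit of all 15 mice at -0.29 (edgeR adjusted p = 0.0253) and by DESeq2 at -0.30 (adjusted p = 0.0357). Per length, Slc2a1 stood at 1.10% ± 0.294 of Slc2a4 in wild-type mice of 3 mo and 2.93% ± 0.817 at 19 mo, and at 1.10% ± 0.238 and 3.28% ± 1.39 in V338Y mice.

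For glycogen synthesis, Gys1 (chr7:45434844-45456619, plus strand) was higher with age in both genotypes. In wild-type mice 1 to 4 of 3 mo it had 212, 219, 245 and 226 CPM, and 263, 266 and 391 CPM in mice 2, 4 and 5 of 19 mo, without overlap. V338Y mice had 223, 191, 245 and 195 CPM at 3 mo and 253, 308, 225 and 391 CPM in mice 2, 3, 4 and 5 of 19 mo, where mouse 4 lay within the young range. The log2 fold changes were 0.45 ± 0.144 and 0.47 ± 0.167 (SE), with edgeR adjusted p-values of 0.0376 and 0.0409. The wild-type call was lost without mouse 1, 2, 3 or 4 of 3 mo or mouse 5 of 19 mo (edgeR adjusted p 0.0550 to 0.0920), and the V338Y call without mouse 1, 2 or 4 of 3 mo or mouse 3 or 5 of 19 mo (0.0709 to 0.107). Without mouse 5 of 19 mo the wild-type log2 fold change was 0.23. In a fit of all 15 mice the wild-type call was lost (edgeR adjusted p = 0.0590), and without a filter or with RLE scaling the V338Y call (0.0563 and 0.0501). Gys1 shares 310 exon bases with Ruvbl2 on the opposite strand, and whether strand was used in counting is not given in the sources used here.

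Gyg (chr3:20122084-20155317, minus strand), the primer of glycogen chains, was lower with age in V338Y mice. It had 269, 341, 289 and 342 CPM in V338Y mice 1 to 4 of 3 mo and 161, 242, 233 and 208 CPM in mice 2, 3, 4 and 5 of 19 mo, without overlap. The log2 fold change of -0.54 ± 0.145 (SE, edgeR adjusted p = 0.0126) was called without any of the 8 mice. With library totals in place of TMM scaling it was -0.26 and no longer called (edgeR adjusted p = 0.128). In wild-type mice the 4 values of 3 mo, 291 to 358 CPM, also lay above the 3 of 19 mo, 265 to 272 CPM, and the log2 fold change of -0.23 ± 0.0988 had an edgeR adjusted p of 0.0944.

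Gbe1 (chr16:70313949-70569716, plus strand), the branching enzyme, rose with age in V338Y mice. Its levels there were 48.7, 50.6, 48.3 and 50.7 CPM in mice 1 to 4 of 3 mo and 77.4, 71.0, 69.0 and 145 CPM in mice 2, 3, 4 and 5 of 19 mo, so that every old mouse lay above every young one. The log2 fold change was 0.89 ± 0.221 (SE, edgeR adjusted p = 0.00943) and was called without each of the 8 mice. Without mouse 5, the highest, it was 0.57 ± 0.0887 with an edgeR adjusted p of 0.000814. In wild-type mice Gbe1 had 73.8, 73.8, 66.7 and 70.1 CPM in mice 1 to 4 of 3 mo. The wild-type mice of 19 mo spanned the widest range of any group, with 44.1 CPM in mouse 2, 70.3 in mouse 4 and 122 in mouse 5, and these values lay on both sides of the young ones. The interaction for Gbe1 was 0.73 ± 0.386 (edgeR adjusted p = 0.572). It was 0.89 ± 0.187 with an adjusted p of 0.287 without both mice numbered 5 of 19 mo, and between 0.43 and 1.19 when a mouse was left out in turn.

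Of the genes for glycogen breakdown, Phkg1 (chr5:129863421-129898549, minus strand) fell with age in both genotypes. It had 497, 463, 488 and 478 CPM in wild-type mice 1 to 4 of 3 mo and 404, 340.4 and 229 CPM in mice 2, 4 and 5 of 19 mo. V338Y mice had 447, 525, 554 and 549.8 CPM at 3 mo and 267, 368, 283 and 184 CPM in mice 2, 3, 4 and 5 of 19 mo. The ages did not overlap in either genotype, and mouse 5 was the lowest of each old group. The log2 fold changes were -0.56 ± 0.168 and -0.90 ± 0.189 (SE), with edgeR adjusted p-values of 0.0276 and 0.00394. The V338Y call held without any of the 8 mice, at values of -1.08 to -0.74. The wild-type call was lost without mouse 1, 3 or 4 of 3 mo or mouse 4 of 19 mo (edgeR adjusted p 0.0529 to 0.0602), and without mouse 5 of 19 mo the value was -0.38. With library totals the wild-type value was -0.47 (edgeR adjusted p = 0.0551). Phkg1 shares 630 exon bases with Sumf2 on the opposite strand.

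Pygm (chr19:6384399-6398459, plus strand), the muscle phosphorylase, had 4257, 4162, 4458 and 4106 CPM in V338Y mice 1 to 4 of 3 mo and 2632, 3924, 2982 and 1916 CPM in mice 2, 3, 4 and 5 of 19 mo. The ages did not overlap, although mouse 3 came close to the young range. The log2 fold change was -0.56 ± 0.208 (SE) with an edgeR adjusted p of 0.0498, at the threshold. The call remained only without mouse 3 of 19 mo (edgeR adjusted p = 0.00768) and was lost without any other mouse, with adjusted p-values of 0.0604 to 0.112. Without mouse 5 of 19 mo the log2 fold change was -0.40. The call was also lost under another filter, no filter or upper-quartile scaling (edgeR adjusted p 0.0550 to 0.0556) and with library totals, at -0.28 (edgeR adjusted p = 0.239). Wild-type mice had 4158, 3541, 4259.5 and 3792 CPM at 3 mo and 4344, 3657 and 3094 CPM in mice 2, 4 and 5 of 19 mo, and the ages overlapped. Gys1 reached 13.7% of Pygm per length in V338Y mouse 5 and 8.48% in wild-type mouse 5, and 4.07% to 6.47% in the other mice of 19 mo.

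Ppp1r3a (chr6:14713977-14755274, minus strand), which tethers protein phosphatase 1 to glycogen in muscle, fell with age in V338Y mice. It had 921, 1220.3, 1222 and 1358 CPM in mice 1 to 4 of 3 mo and 659, 963, 822 and 622 CPM in mice 2, 3, 4 and 5 of 19 mo, where mouse 3 lay above the lowest young mouse. The log2 fold change of -0.61 ± 0.177 (SE, edgeR adjusted p = 0.0183) lost its call without mouse 4 of 3 mo, at an edgeR adjusted p of 0.0564, and with library totals, at -0.33 (edgeR adjusted p = 0.117). Wild-type mice had 998 to 1403 CPM at 3 mo and 1014 to 1151 CPM at 19 mo, with a log2 fold change of -0.21 ± 0.137 (edgeR adjusted p = 0.246). Ppp1r3c (chr19:36731731-36736653, minus strand), a targeting subunit found in many tissues, had 479, 694, 378 and 603 CPM in V338Y mice 1 to 4 of 3 mo and 259, 411, 507 and 372 CPM in mice 2, 3, 4 and 5 of 19 mo. These ranges overlapped, and the log2 fold change of -0.46 ± 0.232 had an edgeR adjusted p of 0.127. In wild-type mice Ppp1r3c stood at 493 to 945 CPM at 3 mo and at 565 to 708 CPM at 19 mo.

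The mice of 19 mo differed among themselves, as the bar plots of these mice show. In both genotypes mouse 5 had the highest Gbe1, Gys1 and Slc2a1 and the lowest Pygm and Phkg1 of its group. The same mice had the highest slow fibre sum, 844 and 2739 CPM, and the lowest fast fibre sum, 97236 and 74612 CPM, of their groups. Slow fibre markers moved with age as well, as 7 of the 8 rose in wild-type mice, against 0 in those carrying V338Y, where mouse 5 alone was far above the young range. Of the 10 fast fibre markers 4 fell and 1 rose in wild-type mice, and 6 fell and 1 rose in V338Y mice. Of all tested genes 17.8% and 22.5% fell in these comparisons. In V338Y mouse 5 neutrophil markers also summed to 603 CPM, against 4.30 to 27.7 CPM in the other V338Y mice of 19 mo. The sum of the 7 skeletal muscle fibre markers was 111192, 178831, 136018 and 138278 CPM in V338Y mice 2, 3, 4 and 5 of 19 mo. The mouse with the lowest sum, number 2, also had the lowest Gyg, Slc2a4 and Ppp1r3c of these mice, and number 3, with the highest sum, had the highest Pygm, Phkg1, Gyg, Slc2a4 and Ppp1r3a. The part of fibre makeup in the levels of the 9 genes was not tested.

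**Figure D4:**
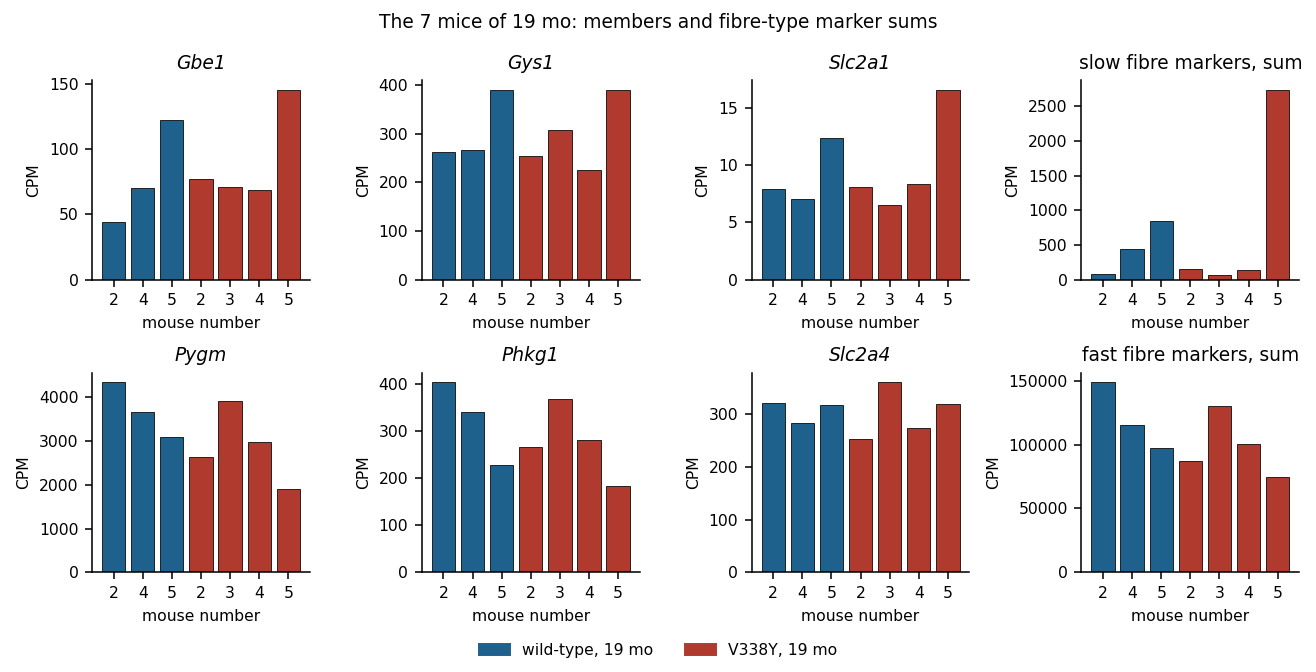
CPM (vertical axes, linear from 0) of 6 genes and the summed CPM of the 8 slow and 10 fast fibre markers in each of the 7 mice of 19 mo, with mouse numbers on the horizontal axes and colours for genotype. The bars of mouse 5 are the highest of their group for Gbe1, Gys1 and Slc2a1 and the slow fibre sum, and the lowest for Pygm and Phkg1 and the fast fibre sum.

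The spread within groups was described by Pearson correlations of log2 CPM after subtracting each group's mean, over the 15 mice. The genes compared were measured in the same libraries, and these values carry no test. Pygm and Phkg1 varied together with r = 0.90, and Gbe1 varied against both, with r = -0.81 and -0.88. Without both mice numbered 5 of 19 mo these values were 0.80, -0.50 and -0.41 over 13 mice. Gbe1 and Gys1 had r = 0.74 over 15 mice and -0.11 over 13, so that their likeness rested on those mice. Gyg varied with Ppp1r3c at r = 0.75 and with Ppp1r3a at 0.69, and these were 0.77 and 0.77 without the mice numbered 5. Slc2a4 and Pygm had r = 0.30 over 15 mice and 0.92 over 13.

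Among 12805 other genes, those whose deviations were most like those of each gene were picked by the same r. For Gbe1 they were Myoz2 (r = 0.98), Klhl34 (0.96) and Smtnl1 (0.96), with 0.84, 0.70 and 0.75 over 13 mice. For Pygm they were Ckm, the muscle creatine kinase, Actn3, the fast fibre actinin, and Msrb3, each at 0.96 and at 0.88 to 0.92 over 13 mice. For Phkg1 they were Gpd2 (0.97), Myoz1 (0.97) and Capza2 (0.96). The genes most like Ppp1r3a were Ide, Sorbs2 and Ppp3cb at 0.90 to 0.93, those most like Slc2a4 were Prkar2a, Ifrd2 and Igkv5-39 at 0.88 to 0.92, and those most like Slc2a1 were Tmed5, Fam117b and Fam126b at 0.91 to 0.97. Gys1 was most like Egln1, Helb and Mapkapk2, each at 0.91 and at 0.69 to 0.78 over 13 mice. Gyg was most like Zfp2, Pias2 and Abce1 at 0.89 to 0.93, and Ppp1r3c like Zfp189, Rtf1 and Patz1 at 0.86 to 0.93.

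The wider pathway was read from 7 lists of 60 further genes. In wild-type mice 55 of these could be tested and 9 rose and 10 fell with age, 34.5% against 36.2% of all tested genes. In V338Y mice 12 rose and 16 fell of 56 tested, 50% against 46.9%. The median log2 fold changes, 0.02 in both genotypes, were close to those of all tested genes, so that the wider pathway as a whole did not stand apart.

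**Figure D5:**
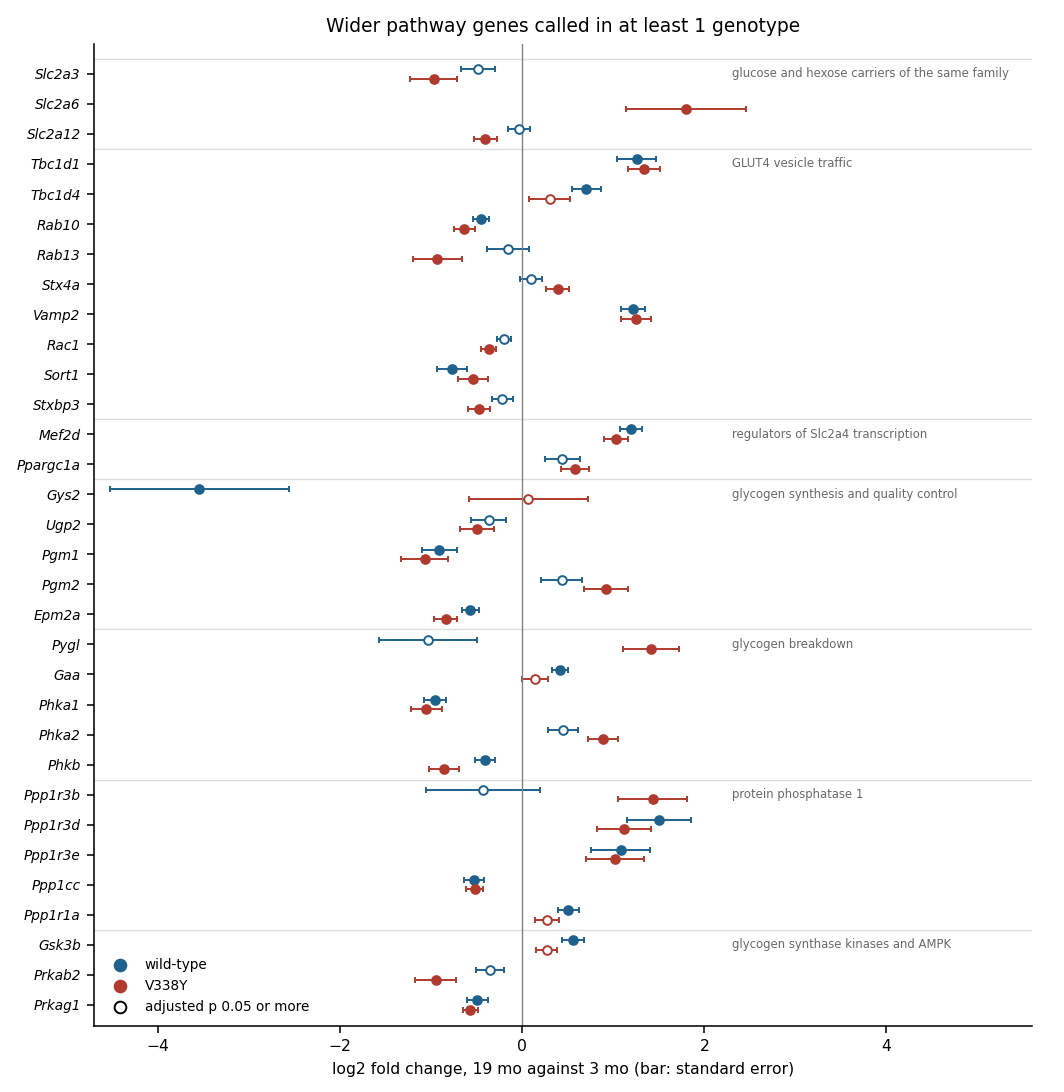
Log2 fold change from 3 to 19 mo (horizontal axis) with its standard error for the wider pathway genes reported by name that passed the test in at least 1 genotype, grouped by list, with wild-type and V338Y mice in separate colours and open points where the adjusted p was 0.05 or more. Tbc1d1, Vamp2 and Mef2d lie between 1.03 and 1.34 in both genotypes, and Phka1 and Pgm1 between -0.91 and -1.07.

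Of the 13 genes for GLUT4 vesicle traffic 5 passed in wild-type and 8 in V338Y mice. These are 38.5% and 61.5%, beside 36.2% and 46.9% of all tested genes. Tbc1d1, a Rab GTPase-activating protein that holds GLUT4 vesicles inside the cell, rose by a log2 fold change of 1.26 ± 0.216 (SE) and 1.34 ± 0.176, and Vamp2, a vesicle SNARE, by 1.22 ± 0.135 and 1.25 ± 0.165. Rab10, a GTPase of these vesicles, changed by -0.45 and -0.63, and Sort1, which sorts their cargo, by -0.77 and -0.54. Tbc1d4, the second such GTPase-activating protein, passed only in wild-type mice (0.71), and Stx4a (0.39), Rab13 (-0.93), Rac1 (-0.37) and Stxbp3 (-0.47) passed only in V338Y mice, and the interaction passed for 0 of them by edgeR. Among 5 regulators of Slc2a4 transcription, Mef2d rose by 1.19 and 1.03 in wild-type and V338Y mice, and Ppargc1a, a coactivator of mitochondrial genes, passed in V338Y mice with 0.58. Adjusted p-values of these calls by edgeR ranged from 0.000258 to 0.0283.

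Of the other carriers of the family 0 of 5 tested passed in wild-type and 3 of 6 in V338Y mice. These are 0% and 50%, beside 36.2% and 46.9% of all tested genes. In V338Y mice Slc2a3 (GLUT3) fell by 0.97 and Slc2a12 by 0.40 on the log2 scale. Slc2a6 rose there from at most 0.331 CPM to at most 1.03 CPM, a change that rests on few counts.

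Of the 7 further genes of glycogen synthesis 0 rose and 3 fell in wild-type mice, and 1 rose and 3 fell in V338Y mice. Of the 8 further genes of glycogen breakdown 1 rose and 3 fell in wild-type mice, and 2 rose and 3 fell in V338Y mice. For synthesis and breakdown these are 42.9% and 50% in wild-type mice, beside 36.2% of all tested genes. In V338Y mice they are 57.1% and 62.5%, beside 46.9%. The regulatory subunits of phosphorylase kinase, Phka1 and Phkb, fell with log2 fold changes of -0.96 and -0.41 in wild-type and -1.05 and -0.86 in V338Y mice. Phka1 went from 1499 to 1820 CPM in wild-type mice of 3 mo to 773 to 966 CPM at 19 mo. The liver form Phka2 had 0.45 in wild-type mice (edgeR adjusted p = 0.0551) and rose by 0.89 in V338Y mice. Pgm1, a phosphoglucomutase, fell by 0.91 and 1.07 on the log2 scale in wild-type and V338Y mice. Epm2a, the glycogen phosphatase laforin, fell by 0.57 and 0.84 in the same comparisons. In V338Y mice Ugp2, which makes UDP-glucose, had -0.50 and passed with overlapping groups, and Pgm2 rose by 0.92, and in wild-type mice the lysosomal glucosidase Gaa rose by 0.41.

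Of the 10 genes of the protein phosphatase 1 list 8 could be tested, and 3 rose and 1 fell in each genotype. Those not tested include a catalytic subunit without a count in any mouse. Whether its transcript was absent or its reads were not counted was not tested. Ppp1r3d rose by 1.505 and 1.12 and Ppp1r3e by 1.08 and 1.02 on the log2 scale, from at most 2.26 CPM at 3 mo for Ppp1r3d and 1.14 CPM for Ppp1r3e, the latter on 5 to 26 counts per mouse. Ppp1r1a, an inhibitor of the phosphatase, rose by 0.50 in wild-type mice, Ppp1r3b by 1.43 in V338Y mice, and the catalytic subunit Ppp1cc fell by 0.53 and 0.52. Among 9 kinase genes, Prkag1, a subunit of AMPK, fell by 0.49 and 0.57 in the genotypes, Gsk3b rose by 0.56 in wild-type mice and Prkab2 fell by 0.95 in V338Y mice.

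Among the wider pathway genes, the liver forms Gys2 and Pygl had the largest interaction values. Gys2 fell in wild-type mice, by 3.55 ± 0.981 (SE) on the log2 scale with an edgeR adjusted p of 0.0197, but from 8 to 93 counts per mouse at 3 mo to 3 to 4 counts at 19 mo, with mouse 1 the highest of the young. Pygl had 28.4, 6.66, 6.56 and 6.79 CPM in wild-type mice 1 to 4 of 3 mo, 6.40, 5.69 and 5.37 CPM in wild-type mice 2, 4 and 5 of 19 mo, and 22.1, 10.9, 15.6 and 22.9 CPM in V338Y mice 2, 3, 4 and 5 of 19 mo. In V338Y mice Pygl rose with age by 1.41 ± 0.305 (edgeR adjusted p = 0.00459). The interactions were 3.59 for Gys2 and 2.43 for Pygl, with edgeR adjusted p-values of 0.435 and 0.383. Adipocyte markers, of a cell type that also expresses both liver forms, summed to 221 to 482 CPM in wild-type and 265 to 1366 CPM in V338Y mice of 19 mo, and their part was not tested.

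Whether V338Y changed these transcripts at 3 mo was asked in 4 against 4 mice. Gbe1 was the 1 of the 9 genes that passed, beside 0.0750% of 13333 tested genes, or 10 genes, of which 7 lie on chromosome 2, that of Mrps5. The 4 V338Y mice, with 48.3 to 50.7 CPM, all lay below the 4 wild-type mice, with 66.7 to 73.8 CPM, an order found for 2.24% of all tested genes. The level in V338Y mice was 0.698 times that of wild-type mice, with a log2 fold change of -0.52 ± 0.0666 (SE, edgeR adjusted p = 0.0202). The fold change stayed between -0.55 and -0.50 when a mouse was left out, but the call was lost without wild-type mouse 2 or 4 or any V338Y mouse, at edgeR adjusted p-values of 0.0504 to 0.107. In a fit of all 15 mice, which takes the wider spread of the old mice into account, the adjusted p was 0.865. Slow fibre markers, of which 0 of 8 passed, summed to 67.5 to 82.3 CPM in the wild-type and 59.6 to 189 CPM in the V338Y mice. Their median log2 fold change was 1.68. Among the other 8 genes the largest value was that of Ppp1r3c, -0.40 ± 0.211 (edgeR adjusted p = 0.578), and all 8 overlapped between genotypes, while 4.71% of all tested genes did not. Of the 55 wider pathway genes tested 0 passed by edgeR, with 4 at an unadjusted p under 0.05, and DESeq2 called 1.

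At 19 mo 0 of the 9 genes passed between V338Y and wild-type mice, beside 0.0434% of 13833 tested genes, or 6 genes. An unadjusted p under 0.05 was reached by 2 of the 9, Ppp1r3a and Ppp1r3c, beside 8.92% of all tested genes, and DESeq2 also called 0 of the 9. Ppp1r3c, Ppp1r3a and Gyg were lower in every V338Y mouse than in any wild-type mouse, 3 of the 9 genes beside 5.26% of all tested genes, and 9.78% did not overlap in either direction. The skeletal muscle fibre markers summed to 155838 to 186772 CPM in the wild-type and 111192 to 178831 CPM in the V338Y mice, with medians of 177124 and 137148 CPM, and their part was not tested. Ppp1r3c had 602, 565 and 708 CPM in wild-type mice 2, 4 and 5 and 259, 411, 507 and 372 CPM in V338Y mice 2, 3, 4 and 5, with a log2 fold change of -0.66 ± 0.220 (SE, edgeR adjusted p = 0.534). Ppp1r3a had 1151, 1098 and 1014 CPM in the wild-type mice against 622 to 963 CPM in the V338Y mice, at -0.48 ± 0.180 (edgeR adjusted p = 0.538). Gyg had 267, 272 and 265 CPM against 161 to 242 CPM, at -0.32 ± 0.150 (edgeR adjusted p = 0.569). Slc2a4, with 283 to 321 CPM in wild-type and 254 to 361 CPM in V338Y mice, overlapped, and so did the other 5 genes.

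The mice of 19 mo that share a number deviated together, although the highest correlation was between mice of unlike number, and a fit with mouse number as a block, which drops V338Y mouse 3, was therefore read beside the unpaired one. It called 122 of all genes in place of 6 between genotypes at 19 mo, and 0 of the 9 genes. The blocked values were -0.73 ± 0.208 (SE) for Ppp1r3c, -0.61 ± 0.143 for Ppp1r3a, -0.53 ± 0.156 for Pygm and -0.40 ± 0.141 for Gyg, with edgeR adjusted p-values of 0.146, 0.106, 0.150 and 0.205. Among the wider pathway genes Pygl passed in it, with 1.82 ± 0.149 (edgeR adjusted p = 0.00419), against 0 in the unpaired fit, where 6 had an unadjusted p under 0.05. For the interaction the block raised the genes called from 0 to 118. None of the 9 was among them, with the lowest adjusted p for Gbe1, 0.0554 at 0.86 ± 0.178. Pygl (2.47), Gys2 (3.54), Prkab2 (-0.82) and Prkag3 (-0.86) of the wider pathway passed in that fit. The mice of 3 mo that share a number did not deviate together, which limits the blocked interaction.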

How the data were processed

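Quadriceps RNA of 15 mice was sequenced. The authors aligned the reads (STAR 2.4.2a and GRCm38, per the submitters' processing notes) and deposited expected counts per gene, which RSEM had estimated, written to the files as whole numbers and scaled neither for depth nor for length. Mice were grouped by the age and genotype of their labels. Using edgeR 4.0.16 in R 4.3.3, genes with at least 10 counts in 50% of the mice of a compared group were kept, libraries were scaled by TMM, and groups were compared by the quasi-likelihood test with Benjamini-Hochberg adjustment within each comparison (adjusted p under 0.05). The interaction used all 15 mice. Standard errors come from the same fit. The test was checked on simulated counts, in which 100 genes were set to an absolute log2 fold change of 1, 100 to 2 and no others changed. Of 100 genes set there to an absolute log2 fold change of 1, it recovered 67 with age in wild-type and 62 in V338Y mice. Between genotypes it recovered 75 of 100 at 3 mo and 47 at 19 mo, and 39 for the interaction. At an absolute log2 fold change of 2 it recovered 77 to 95 of 100, lowest for the interaction. Unchanged genes gave 2 to 10 false calls. The adjusted p depends on how many genes change, which is not known for the data, so that these rates need not hold there. No mice had identical counts, and pairs of a group differed by more than counting noise (chi-square per degree of freedom 5.85 to 111).

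Mice carry numbers in their labels. Same-numbered mice of 19 mo deviated together from their group means (r = 0.13 to 0.40, 3 pairs), while the 9 pairs of unlike number had r = -0.41 to 0.47, highest for wild-type mouse 2 with V338Y mouse 3. Since each same-numbered pair was over 0.1, mouse number was also used as a block. A gene of the wider lists is counted but not reported by name here. The members and lists were chosen with earlier results of these data known. Genes named from a wider list are up to 5 with the smallest adjusted p per comparison, beside isoform partners and the 3 genes most like each member. Upstream sequences come from RefSeq (GRCm38), and exon lengths and positions from GENCODE (GRCm38). Alternatives were other normalizations (RLE, upper quartile, totals), filters and tests (DESeq2 1.42.0, likelihood ratio), a fit of all 15 mice or without the 10 most counted genes, the block, and each mouse left out. Leaving out both mice numbered 5 of 19 mo was chosen after seeing the data.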

Additional observations from a re-analysis of the deposited data

Results flagged for a closer look

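Of 27 groups of 4 mice examined, 1 held a mouse far from the others by Dixon's test, and chance alone gives about 1 in 20. It was V338Y mouse 5 of 19 mo, with a Gbe1 level of 145 CPM, against 69.0 to 77.4 CPM in the other 3 mice. The same mouse had slow fibre markers at 2739 CPM and neutrophil markers at 603 CPM, and their part was not tested.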

How the results depend on the processing

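Of the 29 fold changes of the 9 genes that exceeded their standard error, 19 kept direction and side of the threshold under every alternative run. These 19 include values that passed in no run. The other 16 were smaller than their error, and 12 of them changed sign in at least 1 alternative without passing in any. Among the calls with age, those of Slc2a1 in both genotypes and of Gbe1 and Phkg1 in V338Y mice held in every run. Every other call, with age or at 3 mo, was lost in at least 1 alternative. With mouse number as a replicate block, members called with age in wild-type mice went from 4 to 1 (Slc2a1) and all genes from 4940 to 2249, those in V338Y mice from 7 to 5 (without Gys1 and Pygm, adjusted p 0.0780 and 0.130) and from 6505 to 5527, members at 3 mo from 1 to 0, Ppp1r3a in wild-type mice turned to 0.018, and all genes called went to 122 at 19 mo and 118 for the interaction. The block dropped mice without a partner, and only at 19 mo did every same-numbered pair deviate together. Totals without scaling left 4 of 7 members called in V338Y mice (without Gyg, Pygm and Ppp1r3a) and turned Slc2a4 there to 0.0013. Under them the median log2 fold change of all genes with age went from 0.02 to 0.11 in wild-type and from 0.07 to 0.36 in V338Y mice, and the share of calls upward from 50.7% to 66.1% and from 52.1% to 80.9%. Between genotypes at 3 mo that share went from 50% of 10 calls to 28.6% of 7, which are few genes. A fit of all 15 mice called 0 members at 3 mo. Genes called without a filter, by DESeq2 and by the likelihood ratio test were 33, 66 and 83 at 3 mo, 14, 62 and 72 at 19 mo, and 5, 26 and 36 for the interaction. When 1 mouse was left out, members called ranged from 2 to 4 in wild-type mice, 4 to 7 in V338Y mice and 0 to 1 at 3 mo, and genes called from 3 to 14 at 3 mo and 2 to 7 at 19 mo. Beyond these constructions, the cause was not tested. Depth limits genes of few counts, among them Slc2a1, Gys2, Slc2a6 and Ppp1r3e.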
